A study of Mus musculus with 14 samples.

Results

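The 33 genes described here encode the enzymes and carriers of mitochondrial fatty acid oxidation and of ketone body handling. They were given as a list of symbols, and all 33 were found among the 42687 genes of the count table. They fall into 6 steps, with 5 genes of activation, 5 of the carnitine shuttle, 9 acyl-CoA dehydrogenases, 8 of the later steps of the spiral, 3 of electron transfer and 3 of ketone body use. The values come from poly(A) RNA-seq of retinal pigment epithelium (RPE) cells of 3-month-old male mice on a C57BL/6J background, 14 libraries in all, each made from the pooled eyes of 1 mouse. The KO mice were Best1-Cre+/-; Clic4f/f, so that both floxed alleles of Clic4, a chloride intracellular channel family member, can be cut where the Best1 promoter drives Cre, in the RPE and from after birth on. The WT mice were wild type, with neither Cre nor floxed alleles. The Ctrl mice were Clic4f/f without Cre, and the CreCtrl mice were Best1-Cre+/- with wild-type Clic4. Each control group was set against its own KO mice, which gave a WT set of 3 WT and 3 KO libraries, a Ctrl set of 2 and 2, and a CreCtrl set of 2 and 2. The question was how the transcripts of fat burning differ between RPE that lacks Clic4 and RPE that has it.

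Long-chain fatty acids enter this pathway as acyl-CoA esters made by the Acsl enzymes. Cpt1 at the outer mitochondrial membrane passes the acyl group to carnitine, the carrier Slc25a20 moves it inward, and Cpt2 gives it back to coenzyme A. Each turn of the spiral then runs dehydrogenation, hydration, a further dehydrogenation and a thiolytic cut, and the electrons of the dehydrogenation step pass through the flavoprotein Etfa/Etfb to Etfdh and on to ubiquinone. The RPE takes up daily the lipid-rich tips that photoreceptors shed, burns part of their fatty acids and turns part of them into ketone bodies, of which 3-hydroxybutyrate is released towards the retina.

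The libraries held 9828293 to 32384166 counts. Clic4 itself lay at 218 to 230 CPM (counts scaled to the size of each library) in WT and at 17.9 to 33.1 in the KO of that set, at 62.1 to 71.4 in Ctrl against 9.78 to 33.9, and at 86.5 to 108 in CreCtrl against 13.7 to 30.5, so that KO lay below control in every set. The libraries also differed in their cell markers, and the WT libraries stood apart from the 4 other controls with the lowest RPE and the highest fibroblast sums. The summed CPM of 10 RPE markers, which include Rpe65, Rlbp1 and Ttr and of which none was at 0, was 15110 to 22562 in WT and 71576 to 80071 in its KO, 45579 to 46566 in Ctrl and 69974 to 73060 in its KO, and 48867 to 56159 in CreCtrl and 69784 to 75721 in its KO. Of the 10, 9 had a positive log2 fold change against WT, 8 against Ctrl and 9 against CreCtrl. Best1 went the other way, with 3.28 to 5.94 CPM in WT and 1.22 to 1.54 in its KO, and with -1.11 in log2 against CreCtrl. Mlana and Tyrp1 gave -0.95 and -0.94 against Ctrl. None of these decreases was called. The sum of 10 fibroblast markers ran the other way, with 7840 to 8189 in WT against 278 to 825 in KO, 1268 to 2378 in Ctrl against 123 to 321, and 1390 to 2901 in CreCtrl against 253 to 344. Endothelial markers summed to 344 to 793 CPM in WT against 81.5 to 159 in its KO. Rod markers summed to 1216 and 4907 CPM in CreCtrl against 568 and 648 in its KO, to 555 and 2120 in Ctrl against 2036 and 2162, and to 60.1 to 1501 in WT against 407 to 2174. In bulk RNA of this kind, a larger share of RPE cells and more RNA per RPE cell cannot be told apart.

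Across the 14 libraries the members spanned a wide range. On the scale of CPM per kb of exon, the mean level was highest for Acsl6 (150), Eci1 (120), Acadl (96.0), Acaa2 (94.3) and Acadvl (59.0). The ranges over libraries of Acsl6 and Eci1 overlapped, as did those of Acadl and Acaa2. The order within each of these pairs was therefore not beyond their spread. Acsl5 (3.74), Acad12 (2.63) and Acad9 (2.01) were the lowest members above background. Cpt1b, the muscle form of the outer carnitine acyltransferase, was under 1 CPM in 13 libraries and never above 1.12 CPM. It had 0 counts in all 3 KO libraries of the WT set and in 1 KO library of the Ctrl set, which allows up to 3 counts each. Skeletal muscle markers summed to at most 22.3 CPM in any library and adipocyte markers to at most 45.4.

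**Figure D1:**
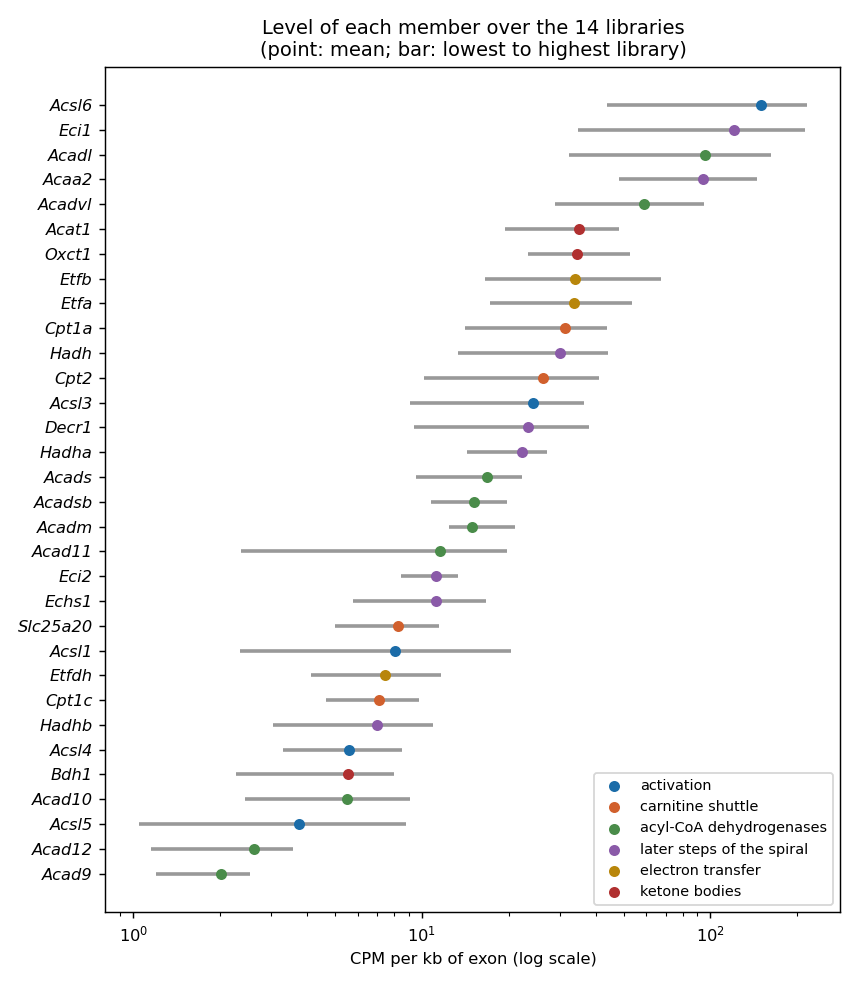
Level of 32 members over the 14 libraries in CPM per kb of exon on a log axis, with the mean as a point coloured by step and a bar from the lowest to the highest library. Cpt1b, at 0.075, is left out. Acsl6 and Eci1 lead at 150 and 120, and Acad12 and Acad9 close the order at 2.63 and 2.01.

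In the WT set most steps of the pathway were higher in KO. Of the 32 members tested by edgeR's quasi-likelihood test, 21 were called higher at an adjusted p under 0.05, beside 16.1% of all genes tested, and 1 was called lower, beside 19.0%. The median log2 fold change of the members was 0.92, against -0.08 over all genes. For 25 members every KO library lay above every WT library (28.6% of all genes), and for 1 below (24.5%). The unadjusted p was under 0.05 for 22 members higher (20.1% of all genes) and 1 lower (23.7%). These counts are for TMM scaling. With the same test scaled to library size alone, 17 members were called higher (11.1% of all genes) and 2 lower (25.6%). The median was then 0.68, against -0.32 over all genes. Scaled by the summed RPE markers, 0 were called higher (0.35% of all genes) and 26 lower (79.6%). The median was then -1.0, against -1.98 over all genes. A change of scale moves all genes of a comparison by nearly the same amount. The distance of the members from the typical gene therefore could not change with it and tests nothing about the make-up of the libraries. Of the 10 RPE markers 8 were called higher, with a median log2 fold change of 1.43, and of the 10 fibroblast markers all were called lower, with a median of -4.02. How much of the members' difference goes with the make-up of the libraries was not tested.

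**Figure D2:**
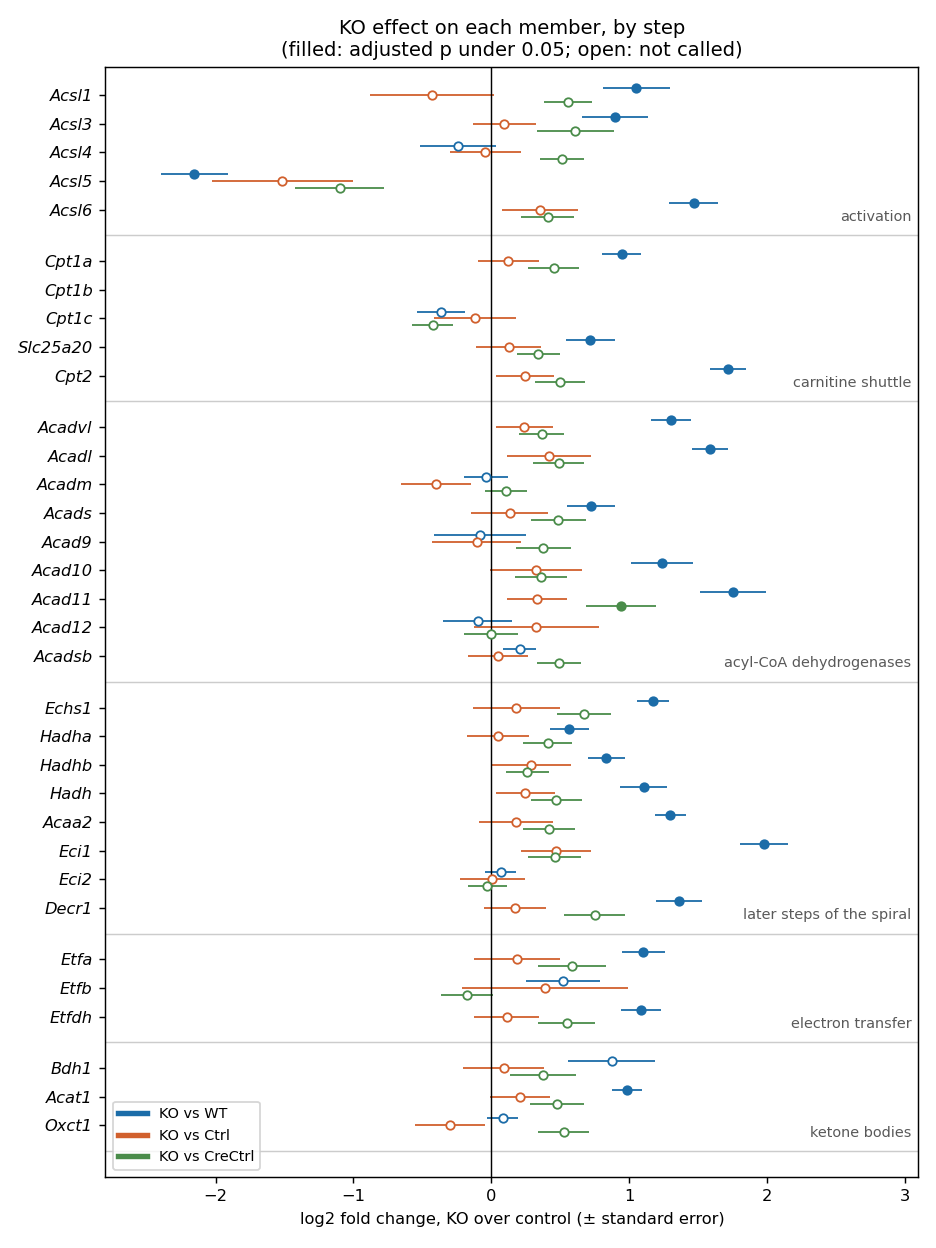
log2 fold change of KO over control with its standard error for each member, by step, in the 3 sets (32 members tested in each). In KO vs WT 22 points are filled, meaning called at an adjusted p under 0.05, against Ctrl 0, and against CreCtrl 1 (Acad11), all with TMM scaling. Scaled to library size alone 17 are called higher and 2 lower in KO vs WT and 0 higher and 2 lower against CreCtrl. Scaled to the RPE markers the KO vs WT median of the members turns from 0.92 to -1.0 and that of all genes from -0.08 to -1.98.

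Activation was led by Acsl6, the long-chain acyl-CoA synthetase best known from brain. Its level was 702, 435 and 569 CPM in the WT libraries and 1733, 1687 and 1786 in their KO. The groups did not overlap, and the fold change was 1.47 ± 0.18 (log2 ± SE, edgeR adjusted p = 0.000406), which turned to -0.45 when scaled to the RPE markers. Acsl1 and Acsl3 were also called higher, by 1.05 ± 0.24 and 0.90 ± 0.24 on the log2 scale. Acsl4, which prefers arachidonate, gave -0.24 ± 0.28 and overlapped between the groups. Acsl5, a synthetase of outer mitochondrial and endoplasmic reticulum membranes, was the exception of the whole list. It was at 27.1, 37.4 and 42.7 CPM in WT and at 9.86, 8.11 and 8.62 in KO, a decrease by 2.15 ± 0.24 (edgeR adjusted p = 0.000289). On the RPE marker scale, which lowered the median of all genes to -1.98, its value was -4.01. Acsl5 shares 404 exon bases with Zdhhc6 on the opposite strand. Per kb of exon, Acsl6 made up 61.3 to 70.8% of the summed Acsl level in WT and 82.0 to 82.6% in the KO. The share was 69.9 to 72.9% in Ctrl and 77.6 to 77.8% in its KO. In the CreCtrl set the groups overlapped, at 80.3 to 84.7% in CreCtrl and 79.8 to 83.5% in KO.

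The promoter of Acsl6 was the only 1 among the 28 members with a RefSeq window (250 bases before to 50 after the start, GRCm38.p6) that held TNAAGGTCA, the element bound by estrogen-related receptors, which are regulators of oxidative genes. On either strand the element stands in the windows of 1.43% of all genes. The stretch is shown with the match, which reads on the opposite strand, in capitals, and lies on chr11:54303624-54303723, plus strand, upstream of the gene.
Acsl6 promoter: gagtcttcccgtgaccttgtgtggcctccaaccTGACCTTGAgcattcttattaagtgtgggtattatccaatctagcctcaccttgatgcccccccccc
A match describes letters and does not show binding.

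In the carnitine shuttle 3 of 4 tested members were called higher. Cpt2, the inner membrane enzyme, was at 27.3, 24.4 and 24.9 CPM in WT and at 98.5, 90.7 and 88.9 in KO. The increase was 1.72 ± 0.13 (adjusted p = 4.84e-05). Cpt1a, the liver form of the rate-setting outer enzyme, was at 142, 108 and 124 CPM in WT and 252, 250 and 292 in KO, an increase of 0.95 ± 0.14 (adjusted p = 0.00115). Cpt2 therefore differed more than Cpt1a, and the ratio of Cpt2 to Cpt1a CPM was 0.193 to 0.225 in WT and 0.304 to 0.391 in KO. It was 0.210 to 0.222 in Ctrl and 0.231 to 0.239 in its KO, and overlapped in the CreCtrl set, at 0.227 to 0.272 in CreCtrl and 0.236 to 0.288 in KO. The carrier Slc25a20 was called higher by 0.72 ± 0.18. Cpt1c, a form of the neuronal endoplasmic reticulum, was at 54.9, 41.7 and 53.0 CPM in WT and 46.7, 36.3 and 45.0 in KO, and its -0.37 ± 0.18 was not called (edgeR adjusted p = 0.147). Per kb of exon, Cpt1a made up 62.8 to 65.1% of the 3 Cpt1 genes in WT and 79.9 to 83.5% in KO. The share was 77.6 to 79.8% in CreCtrl and 85.5 to 88.9% in its KO, and overlapped in the Ctrl set, at 82.6 to 88.5% in Ctrl and 86.7 to 88.3% in KO. With the RPE markers as the scale, Cpt2 came to -0.19 and Cpt1a to -0.97.

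Of the 9 acyl-CoA dehydrogenases 5 were called higher and 0 lower by edgeR, which gave the same counts at an unadjusted p under 0.05. Acad11, which acts on long chains and on 4-hydroxy acids, was at 41.9, 23.1 and 46.1 CPM in WT and 129, 152 and 133 in KO, an increase of 1.75 ± 0.24 (edgeR adjusted p = 0.000732). Acadl, the long-chain enzyme, was at 65.0, 77.3 and 81.2 CPM in WT and 244, 255 and 243 in KO, higher by 1.59 ± 0.13 (edgeR adjusted p = 6.16e-05). The very long-chain enzyme Acadvl was at 81.0, 77.9 and 100.3 CPM against 215, 256 and 236, higher by 1.30 ± 0.14. No WT library reached a KO library in any of these 3, all of which turned negative when scaled to the RPE markers, at -0.14, -0.29 and -0.58. The medium-chain enzyme Acadm, by contrast, was at 66.1, 51.6 and 52.3 CPM in WT and at 62.5, 53.2 and 66.5 in KO, and gave -0.04 ± 0.16. The ratio of Acadl to Acadm CPM was 0.984 to 1.55 in WT and 3.66 to 4.78 in KO. The short-chain Acads was called higher by 0.72 ± 0.17 and Acad10 by 1.24 ± 0.22. Acad9, which also helps to assemble respiratory complex I, gave -0.08 ± 0.33, Acadsb, the short branched-chain enzyme of isoleucine breakdown, 0.21 ± 0.12, and Acad12 -0.10 ± 0.25, and none of these was called.

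Acad10 and Acad12 are neighbours on chromosome 5 (GRCm38) and share 1614 transcript bases at 95.3% identity, so that reads from one can be assigned to the other. Their counts still moved apart, with Acad10 at 18.9, 17.0 and 14.8 CPM in WT and 40.5, 36.0 and 55.1 in KO and Acad12 at 17.5, 18.7 and 22.3 against 21.8, 15.2 and 23.3. The sign of Acad12 turned with the setting, to 0.042 when all 14 libraries were fitted as 6 groups, while it was -0.10 here. Both promoters held CGCATGCG, the palindromic core of the element bound by nuclear respiratory factor Nrf1, as did those of Acadm and Etfdh, which made 4 of 28 members against 2.07% of all genes. A stretch of 52 bases around the core is shown for each gene of this neighbouring pair with the core in capitals, on the minus strand at chr5:121660509-121660560 and chr5:121618953-121619004.
Acad10 promoter: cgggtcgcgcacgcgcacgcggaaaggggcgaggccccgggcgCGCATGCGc
Acad12 promoter: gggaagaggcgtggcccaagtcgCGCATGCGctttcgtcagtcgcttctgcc
The core began at -7 from the RefSeq start of Acad10 and at -43 from that of Acad12. Of the 4 members that held it, Acad10 and Etfdh were called higher and Acadm and Acad12 were not.

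Of the later steps of the spiral 7 of 8 members were called higher, and all 8 had every KO library above every WT library. Eci1, which shifts double bonds so that unsaturated fatty acids can be used, was at 73.9, 103 and 111 CPM in WT and at 397, 453 and 406 in KO. Its increase of 1.98 ± 0.17 (adjusted p = 8.16e-05) was the highest of all members by edgeR. Of the 32 members it was the only 1 above 0 when scaled to the RPE markers, at 0.11, and it was then not called. Decr1, the dienoyl-CoA reductase of the same branch, was at 36.3, 45.5 and 48.7 CPM against 118, 147.7 and 105 and was higher by 1.36 ± 0.17. Eci2, an isomerase found in peroxisomes too, was at 64.4, 63.6 and 60.2 CPM against 73.7, 72.0 and 72.0, and its 0.07 ± 0.11 was not called and turned to -0.17 when scaled to library size alone.

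Of the enzymes of the main turn, the thiolase Acaa2 was at 73.1, 78.1 and 80.9 CPM in WT and 206, 219 and 205 in KO, higher by 1.30 ± 0.11. The hydratase Echs1 was at 51.9, 47.7 and 48.6 CPM against 112.03, 127 and 130, higher by 1.17 ± 0.12. Hadh, the 3-hydroxyacyl-CoA dehydrogenase, was at 66.1, 84.2 and 103 CPM against 199, 219 and 185, higher by 1.11 ± 0.17. In each of the 3 the lowest KO library was well above the highest WT library, and scaled to the RPE markers they gave -0.59, -0.74 and -0.76. Hadha and Hadhb, the subunits of the trifunctional protein that does these reactions for long chains, were called higher by 0.57 ± 0.14 and 0.84 ± 0.14.

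In the annotation, Hadha and Hadhb start head to head with 85 bases between them, at chr5:30155163-30155247 of GRCm38. The sequence between them is given on the plus strand because it is all that separates the starts of both genes, and it holds 69.4% G and C and 9 CpG.
Interval between Hadha and Hadhb: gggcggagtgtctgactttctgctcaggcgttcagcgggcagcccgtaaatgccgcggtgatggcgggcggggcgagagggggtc
The ratio of Hadhb to Hadha CPM went with the set more than with Clic4. It was 0.0866 to 0.140 in the 4 libraries of the Ctrl set, KO included, and 0.178 to 0.355 in the other 10. Hadha was at 194 and 232 CPM in Ctrl and 217 and 224 in its KO, within the range of the other sets, whereas Hadhb was at 25.6 and 20.1 in Ctrl and 24.6 and 31.3 in its KO, against 51.7 to 71.8 in the CreCtrl set. A processed pseudogene, Gm13910, carries 1428 bases of Hadhb at 99.8% identity, so that the Hadhb counts are uncertain. What part such shared reads have in the low Hadhb of the Ctrl set was not tested.

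**Figure D3:**
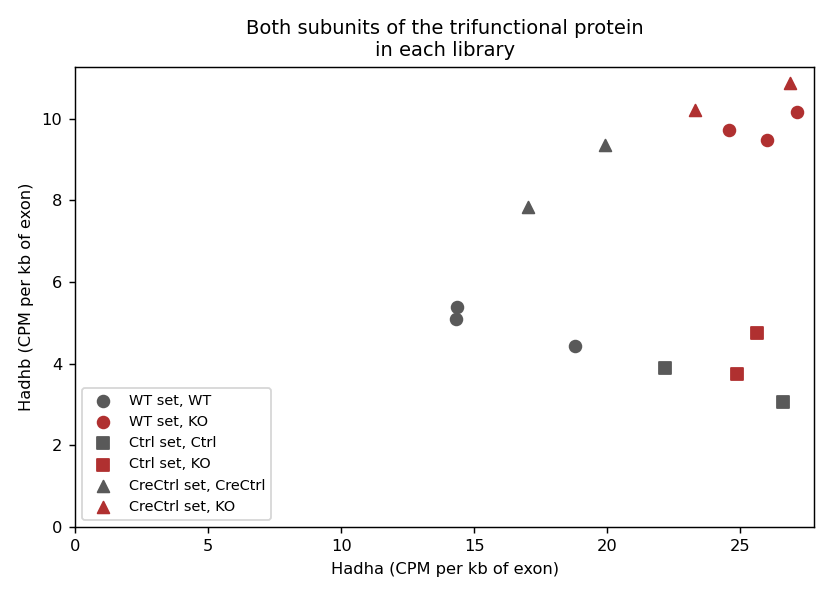
Hadhb against Hadha in each of the 14 libraries, in CPM per kb of exon, with the set by symbol and KO in red. The 4 squares of the Ctrl set, control and KO alike, lie below the other libraries of like Hadha level.

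For electron transfer, Etfa was at 36.6, 31.7 and 41.5 CPM in WT and 81.6, 98.2 and 81.2 in KO, higher by 1.10 ± 0.15 (edgeR adjusted p = 0.000756). Etfdh, the inner membrane oxidoreductase that empties the flavoprotein, was at 32.01, 31.1 and 35.9 CPM against 69.8, 87.3 and 75.5, higher by 1.09 ± 0.14. Both turned negative with the RPE markers as the scale, at -0.79 and -0.81. Etfb, the partner subunit of Etfa, was at 27.0, 38.7 and 19.2 CPM in WT and 44.4, 54.5 and 35.4 in KO. The groups overlapped, the 0.52 ± 0.27 was not called (edgeR adjusted p = 0.175), and it was called without WT replicate 2. Etfb also varied within control groups, with 73.8 and 21.6 CPM in the 2 Ctrl libraries.

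Of the genes of ketone bodies, Acat1, the mitochondrial thiolase that both makes and cleaves acetoacetyl-CoA, was at 76.0, 80.6 and 73.1 CPM in WT and 163, 182 and 157 in KO, higher by 0.98 ± 0.11 (edgeR adjusted p = 0.000278) and at -0.93 on the RPE marker scale. Bdh1, the 3-hydroxybutyrate dehydrogenase, had every KO library above every WT library, and its 0.87 ± 0.32 was not called (edgeR adjusted p = 0.0624). Oxct1, which tissues need to burn ketone bodies, was at 114, 97.0 and 105 CPM in WT and 122, 125 and 122 in KO, with every KO library above every WT library. Its 0.08 ± 0.11 was not called and turned to -0.16 when scaled to library size alone.

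**Figure D4:**
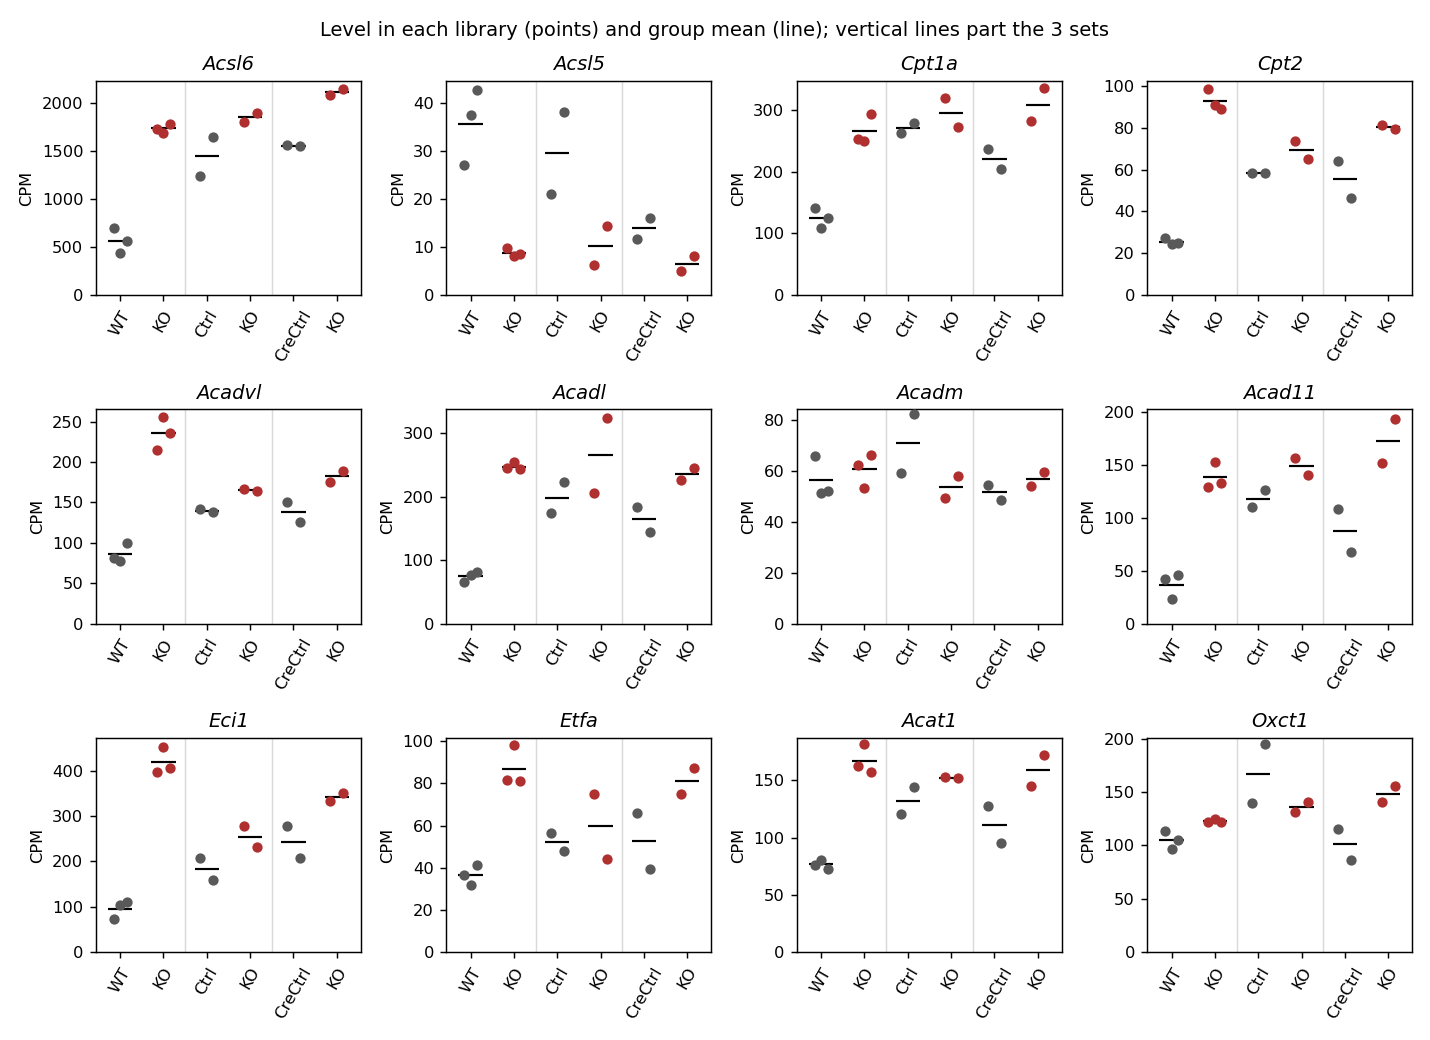
CPM of 12 members in each library (points, controls grey and KO red) with group means as lines and the 3 sets parted by vertical lines, on axes from 0. The WT libraries stand low for Acsl6, Cpt1a, Cpt2, Acadvl, Acadl, Acad11, Eci1, Etfa and Acat1, while Acadm overlaps between KO and WT, Oxct1 lies at 97.0 to 114 in WT and 122 to 125 in KO, and Acsl5 lies lower in KO in every set.

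Against the Cre-free floxed control, where both arms carry the same Clic4 alleles, no member was called. By edgeR 0 of 32 tested members passed in either direction, beside 0.0% of all genes, and at an unadjusted p under 0.05 there were 0 higher (0.713% of all genes) and 1 lower, Acsl5 (11.4%). DESeq2 called 0 members as well (0.0417% of all genes higher and 4.93% lower). Of the 32 fold changes 25 were above 0, beside 51.3% of all genes, with a median of 0.15 against 0.01 for all genes, and leaving out KO replicate 1 brought that median to 0.0042. All KO libraries lay above all Ctrl libraries for 7 members (18.3% of all genes) and below for 2 (22.7%). Acsl5 was at 21.1 and 38.2 CPM in Ctrl and at 6.26 and 14.4 in KO, which gave -1.52 ± 0.51 (edgeR adjusted p = 0.3). Eci1 was at 209 and 158 CPM against 277 and 232 and gave 0.47 ± 0.25 (edgeR adjusted p = 0.615), and Acsl6 was at 1242 and 1650 CPM against 1803 and 1894. Neither overlapped between the groups, and the Eci1 value turned to -0.16 when scaled to the RPE markers. Acadm was at 59.3 and 82.5 CPM in Ctrl and 49.5 and 58.1 in KO, with -0.40 ± 0.26, and was the second member with all KO libraries below all controls. On the RPE marker scale the median was -0.48 over the members and -0.62 over all genes.

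Against CreCtrl, where both arms carry Best1-Cre, 1 of 32 tested members was called higher, beside 3.6% of all genes, and 0 lower, beside 12.2%. That member was Acad11, at 109 and 67.3 CPM in CreCtrl and 151 and 194 in KO (0.94 ± 0.25, edgeR adjusted p = 0.0486). At an unadjusted p under 0.05 there were 15 higher (16.3% of all genes) and 2 lower, Acsl5 and Cpt1c (22.3%). DESeq2 called 9 higher (6.68% of all genes) and 1 lower (9.5%). The median was 0.46, all KO libraries lay above all CreCtrl libraries for 26 members (37.2%), and below for 2 (34.9%). Acsl5 was at 11.8 and 16.1 CPM against 5.08 and 8.13, with -1.10 ± 0.32 (edgeR adjusted p = 0.0566). The count rested on single libraries. It was 18 without CreCtrl replicate 1, 0 without CreCtrl replicate 2, 4 without KO replicate 1 and 0 without KO replicate 2, with the lone library then assumed to vary like the rest. CreCtrl replicate 2, which held the 4907 CPM of rod markers, was the lower of the pair for most members, such as Cpt2 at 64.3 and 46.4 CPM. Oxct1 was at 115.3 and 86.4 CPM in CreCtrl and 141 and 156 in KO, a value of 0.52 ± 0.18 that was not called (edgeR adjusted p = 0.0862). Scaled to the RPE markers the members' median was 0.021, against -0.46 over all genes.

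**Figure D5:**
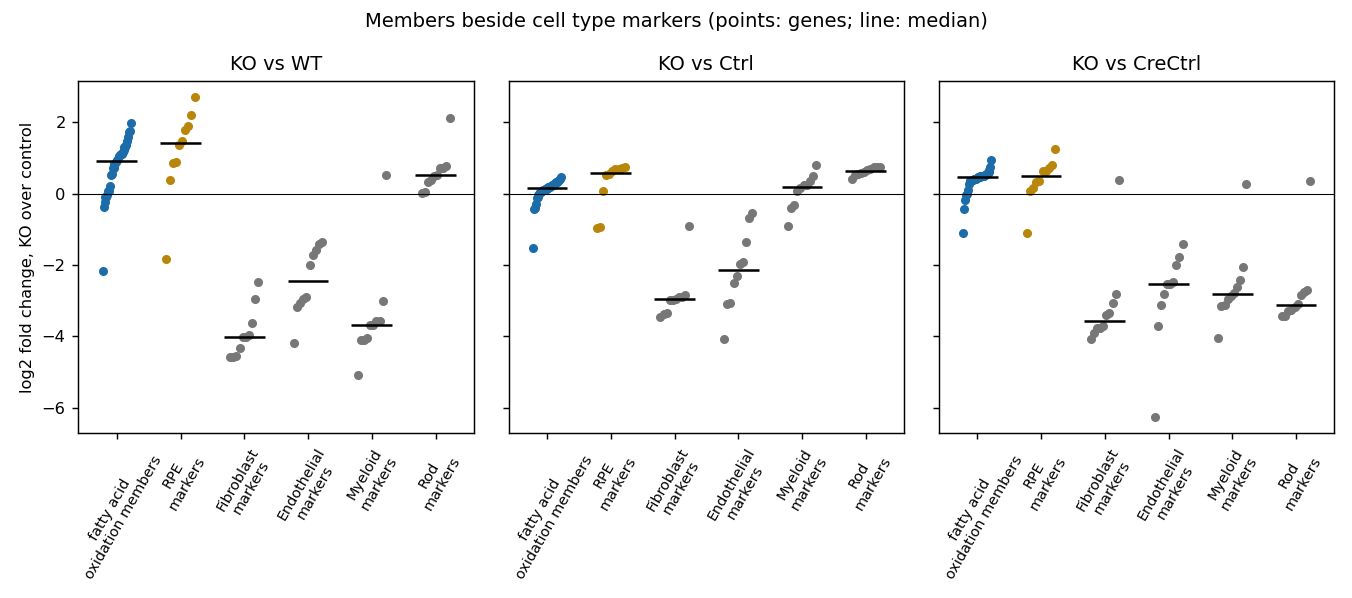
log2 fold changes of KO over control in each set for the members tested and for markers of RPE, fibroblasts, endothelium, myeloid cells and rods, with 1 point per gene and the median as a line. The members' medians are 0.92, 0.15 and 0.46, and those of the RPE markers 1.43, 0.59 and 0.50. In the CreCtrl set these medians lie close together, with RPE markers from -1.11 to 1.26, so that their order is not resolved there. Fibroblast medians lie at -4.02, -2.96 and -3.56.

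With all 14 libraries in 1 fit and the set as a covariate, 22 of 33 members were called higher by edgeR, beside 18.5% of all genes, and 1 lower, Acsl5, beside 17.6%. The median was 0.59 against -0.02. The unadjusted p was under 0.05 for 22 members higher (23.0% of all genes) and 2 lower (22.5%), and 29 fold changes were above 0 (48.5%). Without the 6 libraries of the WT set 0 members were called in either direction. Of all genes 0.579% were then called higher and 5.56% lower, so that the loss of calls higher was not particular to the members. Their median was 0.31, against -0.03 over all genes. Scaled to the RPE markers, 0 were called higher (0.0963% of all genes) and 21 lower (70.3%), with a median of -0.61 against -1.21 over all genes. Every KO library lay above every control of its own set, in all 3 sets, for 7 members (7.84% of all genes), namely Acsl6, Cpt2, Acadvl, Acad11, Hadh, Eci1 and Acat1, and for 0 of the 3 electron transfer genes. Only Acsl5 lay below in all 3 sets (9.57%), with -1.60 ± 0.24 (adjusted p = 0.000332), and -1.30 without the WT set, not called. Cpt1b came to -2.81 ± 1.06 from its few counts (edgeR adjusted p = 0.0521).

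The sets gave KO effects of unequal size. In a fit of all 6 groups, the effect in the WT set was larger than in the Ctrl set for 13 of 33 members, beside 4.34% of all genes, and smaller for 0, beside 0.81%. The difference was largest for Eci1 (1.65 ± 0.28 in log2, edgeR adjusted p = 0.0117) and Cpt2 (1.61 ± 0.22, edgeR adjusted p = 0.00744), and the list included the dehydrogenases Acadvl, Acadl and Acad11, while Acad9 differed by 0.16 and was not called. The count of 13 depended on the scaling, with 7 by RLE normalization and 5 by library size alone. The shares of all genes under these scalings were not counted. Against the CreCtrl set 3 members had a larger effect in the WT set, Cpt2, Acadvl and Eci1 (1.12% of all genes), and 0 a smaller one (0.374%). Between the Ctrl and CreCtrl sets edgeR found 0 members that differed, with 2 at an unadjusted p under 0.05. Of all genes 0.0% differed there in either direction, so that this lack of calls was not particular to the members. The control libraries were ordered by set for more members than the KO libraries were. All 3 WT libraries lay below the 4 other controls for 17 members (17.3% of all genes) and above for 1 (14.6%), while the 3 KO libraries of the WT set lay above the 4 other KO libraries for 6 (9.85%) and below for 5 (10.5%). The sets share no library, so the control genotype and whatever else differed between the sets cannot be told apart.

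Of 33 further genes of the pathway, 32 were tested over all sets, where 16 were called higher, beside 18.5% of all genes, and 4 lower, beside 17.6%. These counts were 14 and 3 of 32 against WT (16.1% and 19.0% of all genes), and 2 and 3 of 31 against CreCtrl (3.6% and 12.2%). Against Ctrl they were 0 and 0 of 31 by edgeR (0.0% of all genes) and 3 had an unadjusted p under 0.05. Ppargc1a, a coactivator of mitochondrial genes, was at 21.3, 16.7 and 20.9 CPM against 52.1, 46.5 and 77.7, and over all sets was higher by 0.83 ± 0.24. Mmut, which takes the end product of odd-chain oxidation onward, and Mlycd, which removes the Cpt1 inhibitor malonyl-CoA, came to 0.93 ± 0.17 and 0.83 ± 0.16. Pcca, a subunit of the propionyl-CoA carboxylase of odd-chain oxidation, came to 0.82 ± 0.16. These 4 all turned negative on the RPE marker scale, at -0.35 for Ppargc1a, -0.27 for Mmut, -0.36 for Mlycd and -0.36 for Pcca, and like the members none was called without the WT set.

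The 4 further genes called lower over all sets were Cd36, Acot9, Fabp3 and Acss1. Cd36, the scavenger receptor and fatty acid translocase that is abundant in macrophages and endothelium, was at 55.9, 63.8 and 44.7 CPM in WT and 4.49, 3.21 and 3.14 in KO, and over all sets gave -2.75 ± 0.68. In the Ctrl set it did not separate the groups, with 80.5 and 25.6 CPM in Ctrl and 4.83 and 73.4 in KO. Within each pair the library with more Cd36 also had the higher sum of 10 myeloid markers, at 1477 and 929 CPM in these Ctrl libraries and 876 and 2602 in KO. Across the pairs the order differed, with the highest Cd36 in Ctrl and the highest sum in KO. Csf1r alone made 766 of the 876 CPM. The part of myeloid cells in the Cd36 values was not tested. Acot9, a mitochondrial thioesterase, was at 17.9, 18.8 and 18.0 CPM in WT and 2.72, 0.699 and 0.802 in KO, and gave -2.71 ± 0.44. Fabp3, a fatty acid carrier of muscle, was at 2.79, 4.73 and 0.754 CPM in WT and had 0 counts in all 3 KO libraries, each of which allows up to 3 counts. Over all sets it gave -3.65 ± 1.30, a call that was lost when any of 9 single libraries was left out. Acss1, the mitochondrial acetate-activating enzyme, gave -1.82 ± 0.43. Without the WT set the calls of Cd36 and Acss1 were lost, and Fabp3 had too few counts to be tested. Without the CreCtrl set the call of Cd36 was lost.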

How the data were processed

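The deposited values are read counts, 1 per gene and library, made by the authors from stranded poly(A) libraries (TruSeq) with STAR 2.5.2 on GRCm38. HTSeq 0.11.2, Cufflinks 2.1.1 and bcl2fastq 2.19 are further tools of the submitters' processing notes. The strand setting and annotation of the counting are not given in the sources used here, so that counts of genes that overlap on opposite strands (12 members) or share exons on the same strand (5 members) may be mixed. Names and exon lengths came from GENCODE M21 (GRCm38), which held 42329 of the 42687 genes. KO libraries were put into sets by how their titles are spelled and by the study's list of animals.

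KO and control libraries of a set were compared with edgeR 4.0.16 (R 4.3.3, quasi-likelihood test, TMM normalization, filterByExpr) and Benjamini-Hochberg adjustment over all genes tested, with calls at an adjusted p under 0.05. A fit of all 14 libraries had the set as a covariate, and a fit of the 6 groups gave differences of the KO effect between sets. Printed CPM were scaled with TMM factors over all 14 libraries, whereas fold changes are those of each comparison's own fit. The 2 can therefore differ, also in sign where the change is small. Mean Acadm was 56.6 CPM in WT and 60.8 in its KO, beside a negative fold change, and Acad9 and Acad12 did likewise. Whether groups overlapped was read from the printed CPM. The fitting was tested on simulated data. DESeq2 1.42.0, other scalings and filters, a replicate block and leaving out each library were alternatives. Near copies were transcript stretches of at least 100 bases at 95% identity or more (BLAST 2.17.0). Replicates of a group differed by more than sampling noise. The replicate numbers were not taken to pair the libraries.

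Per-library values are given in each step for the member with the highest level per kb, those with the highest and lowest fold change in KO vs WT, every member called lower, and every member whose KO effect differed between sets. The Nrf1 core was searched in promoters in place of a longer form of the element, whose matches had been seen. A DR1 direct repeat was searched at first as well, matched no member and was dropped. Values of Acadm, Acad10, Hadha and Hadhb were added after they were seen. 1 further gene is not reported here. The members, the further genes and the marker lists were chosen with earlier results of these data known.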

Additional observations from a re-analysis of the deposited data

Results flagged for a closer look

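The KO effect of 13 members was larger in the WT set than in the Ctrl set by edgeR's test of the difference itself, a count that was 7 with RLE normalization and 5 with library size alone. In log2, the WT set exceeded the Ctrl set by 1.26 for Acsl6, 0.96 for Cpt1a, 1.61 for Cpt2, 1.21 for Acadvl, 1.31 for Acadl, 1.57 for Acad11, 1.13 for Echs1, 1.00 for Hadh, 1.26 for Acaa2, 1.65 for Eci1, 1.33 for Decr1, 1.12 for Etfdh and 0.92 for Acat1. All 13 had a positive effect in both sets. Of the further genes named, Ppargc1a differed by 1.502, Mmut by 1.10 and Pcca by 1.09. The WT set exceeded the CreCtrl set by 1.33 for Cpt2, 1.05 for Acadvl and 1.63 for Eci1. The RPE marker sum of the WT libraries, at 15110 to 22562 CPM, was below that of every other control, and its part in these differences was not tested.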

How the results depend on the processing

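The sign of the members' fold changes depended on the scaling, which moved all genes together. Library size alone moved the median of all genes in KO vs WT from -0.08 to -0.32. Scaled so, KO vs WT gave 2 members called lower and a median of 0.68, with Eci2 at -0.17 and Oxct1 at -0.16. KO vs CreCtrl gave 0 higher, 2 lower and a median of 0.23, and all sets together 4 lower and a median of 0.31, with Acad12 at -0.16, Eci2 at -0.18 and Oxct1 at -0.10. Scaled by the RPE markers, of whose sum Ttr alone made 36.5 to 56.5%, the counts of members called higher and lower were 0 and 26 in KO vs WT (median -1.0), 0 and 2 in KO vs CreCtrl (median 0.021) and 0 and 21 in all sets (median -0.61), and the median in KO vs Ctrl was -0.48, with Eci1 at -0.16. The median of all genes was then -1.98 in KO vs WT, -0.46 in KO vs CreCtrl, -1.21 in all sets and -0.62 in KO vs Ctrl. Of all genes 79.6%, 23.7%, 70.3% and 4.34% were called lower, in the same order. Since a scale moves members and all genes by nearly the same amount, the distance between their medians was bound to stay and tests nothing. The values in KO vs WT were then -0.45 for Acsl6, -0.97 for Cpt1a, -0.19 for Cpt2, -0.29 for Acadl, -0.14 for Acad11, -1.84 for Eci2, -1.42 for Etfb, -0.79 for Etfa, -0.93 for Acat1, -1.83 for Oxct1, -0.58 for Acadvl, -0.74 for Echs1, -0.76 for Hadh, -0.59 for Acaa2, -0.52 for Decr1 and -0.81 for Etfdh. Over all sets they were -0.28 for Acsl6, -0.56 for Cpt1a, -0.17 for Cpt2, -0.17 for Acadl, -1.05 for Acad12, -1.10 for Eci2, -0.85 for Etfb, -0.42 for Etfa, -0.51 for Acat1, -1.03 for Oxct1, -0.38 for Acadvl, -0.37 for Echs1, -0.42 for Hadh, -0.39 for Acaa2, -0.26 for Decr1, -0.46 for Etfdh, -0.27 for Mmut, -0.36 for Mlycd, -0.36 for Pcca and -0.35 for Ppargc1a.

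Shares of all genes are given in brackets. Among filters and tools, genes with at least 1 count gave 1 member lower in KO vs Ctrl (6.81%). In KO vs CreCtrl this filter gave 12 higher (7.57%) and 1 lower (11.9%). At least 10 counts in every library gave 1 lower in KO vs CreCtrl (12.4%). Over all sets it gave 2 lower (21.6%), with Eci2 at -0.025. DESeq2 gave 2 lower against WT (14.6%), 9 higher (6.68%) and 1 lower (9.5%) against CreCtrl, and 3 lower over all sets (15%). The fit of all 14 libraries as 6 groups gave 2 lower and a median of 1.04 in KO vs WT, with Acad12 at 0.042, and 0 higher in KO vs CreCtrl. Without a set covariate 2 were lower over all sets. Members whose KO effect differed numbered 7 with RLE normalization and 5 with library size alone between the WT and Ctrl sets, 7 with at least 1 count and 6 with at least 10 counts between the WT and CreCtrl sets, and 1 with at least 1 count between the Ctrl and CreCtrl sets.

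Without the WT set, 0 members were higher (0.579% of all genes) and 0 lower (5.56%) over all sets (median 0.31), and without the Ctrl set 2 were lower (median 0.81). Leaving out each library in turn gave 20 to 21 higher, 1 lower and medians of 0.83 to 1.04 in KO vs WT, where Acad12 came to 0.026 to 0.15 without WT replicate 3 or KO replicate 2. In KO vs Ctrl it gave 0 higher, 0 lower and medians of 0.0042 to 0.19. In KO vs CreCtrl it gave 0 to 18 higher, 0 to 1 lower and medians of 0.25 to 0.60. Over all sets it gave 20 to 23 higher, 1 to 2 lower and medians of 0.55 to 0.69, with Acad12 at -0.010 without Ctrl replicate 2.

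A replicate block left 21 members higher (14.8% of all genes) and 1 lower (16.7%) against WT. Over all sets it left 20 (15.3%) and 1 (14.8%). Against CreCtrl it called 5 higher (6.94%) and 1 lower (17%). Same-numbered WT and KO libraries correlated by -0.02, 0.04 and 0.13, and 1 of these 3 pairs correlated best with its own number. In the Ctrl and CreCtrl sets, with 2 pairs each, the correlations were 0.00069 and 0.13 and all 4 pairs did so. With 2 libraries in each arm, however, both pairs of a set have the same correlation by construction. Correlating best with the own number then depends only on its sign, so that these 4 pairs cannot decide whether the numbers pair the libraries. No label ties a number to a shared litter or day, so that the numbers were not taken as pairs.

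With 2 libraries a group, KO vs Ctrl and KO vs CreCtrl bound the members' fold changes loosely, with standard errors of up to 0.60. The cause of the changes above was not tested.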
